A study of Mus musculus with 12 samples.

Results

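Striated muscle of wild-type mice was set against cultured myoblasts of wild-type mice, over all genes of the deposited expression table that averaged at least 1 FPKM over the 3 wild-type columns. FPKM is a level in sequenced fragments scaled to transcript length and to library size. The table holds 22552 genes, of which 12179 met this rule. Of these, 11911 were above 0 in all 3 columns and were compared, and 268 were listed at 0 in at least 1 column and are described apart. The samples behind these columns are 4 of the 12 in a series of knockouts of Lbr and Lmna in C57Bl/6 mice. The muscle column, for which no source names the muscle or the age of the animals, stands for 2 wild-type samples, combined in a way that is not stated. The myoblasts are 2 libraries, 1 from a wild-type mouse of an Lbr litter and 1 from a wild-type mouse of an Lmna litter, both litters coming from heterozygous parents. They are called the Lbr-litter and the Lmna-litter myoblasts below, and neither is a knockout. Where a pair of values is given for the cultures, that of the Lbr litter stands first. Muscle libraries were made with the NuGEN complete RNA-Seq protocol and myoblast libraries with the NuGEN Ovation RNA-Seq kit, so tissue and library kit cannot be told apart in any difference given here.

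Myoblasts are the dividing mononuclear precursors of skeletal muscle. On differentiation they leave the cell cycle, fuse into multinucleate fibres, and replace cytoskeletal and metabolic proteins found in most cells with muscle forms: sarcomeric myosins and actins, the calcium stores of the sarcoplasmic reticulum, and the enzymes that supply ATP to contraction. Striated muscle as a tissue also holds capillaries, nerve, fat, blood and connective tissue, and cells in culture on serum hold stress fibres and deposit matrix. In bulk RNA, fewer cells of a type and less RNA per cell cannot be told apart.

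The tissues differed in most genes. On the scale of log2(FPKM + 1), used for all differences below, 6448 of the 11911 genes (54.1%) differed by 2-fold or more between muscle and the mean of the myoblast libraries. The SD of the difference was 1.76 over genes, against 0.42 for the difference between the myoblast libraries, in which 296 genes (2.49%) were 2-fold apart. In a limma fit with Benjamini-Hochberg adjustment, 2001 genes were higher in muscle and 4405 were lower at an adjusted p under 0.05 and at least 2-fold, the rule for a call throughout. These are 16.8% and 37.0% of the genes compared, and they are the background for each count below. The spread in this fit comes from the 2 myoblast cultures alone, and the muscle column is assumed to vary like them, so the p-values say nothing of the spread between animals' muscles.

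The scale of the libraries bears on the direction of these calls. The median gene differed by −0.57 (interquartile range −1.43 to 0.45), and the 10 most abundant genes took 26.5% of the summed FPKM in muscle, against 9.21% and 10.3% in the myoblast libraries. Of all called genes 31.2% were higher in muscle as deposited, 54.1% after the median difference of all genes was set to 0 and 47.3% after quantile normalization. Medians of gene groups are therefore given beside the same value relative to the median gene. A level of 1 FPKM on a transcript of 2 kb was worth an estimated 8.15 fragments in muscle and 34.0 and 32.4 in the myoblast libraries, so low values were less precise in muscle. In both tissues a similar number of genes reached 1 FPKM, 11809 in muscle and 11315 and 11398 in the myoblast libraries.

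Among the genes furthest above the myoblasts in muscle were genes of the contractile apparatus, of calcium handling and of ATP supply. Pvalb, the calcium buffer parvalbumin, had 11835 FPKM in muscle against 0.0669 and 0.132 FPKM in Lbr-litter and Lmna-litter myoblasts, a log2 difference of 13.39 (SE 0.30, adjusted p = 9.71e-09). Myh4, the myosin heavy chain of the fastest (IIB) fibres, had 13015 FPKM in muscle against 0.551 and 0.614 FPKM in the myoblast libraries (13.01, SE 0.31, adjusted p = 9.71e-09). Ckm, the creatine kinase that regenerates ATP at the sarcomere, had 4977 FPKM in muscle against 0.287 and 0.534 FPKM in the cultures (11.79, SE 0.31, adjusted p = 1.66e-08). All 3 were below 1 FPKM in both cultures. The other 9 of the 12 largest differences upward ran from 10.66 for Tnnc2, the fast troponin C that binds calcium (16921 FPKM in muscle against 6.75 and 13.0 FPKM in the cultures), to 9.39 for Myoz1, a Z-disc protein of fast fibres (745 FPKM in muscle against 0.0874 and 0.130 FPKM in the cultures). Between them lay Tnni2, Mybpc2, Atp2a1, Casq1, Myl1, Tnnt3 and Cox8b, the last a subunit of cytochrome oxidase. In all, 55 genes were at least 100-fold higher in muscle and 9 at least 100-fold lower.

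**Figure D1:**
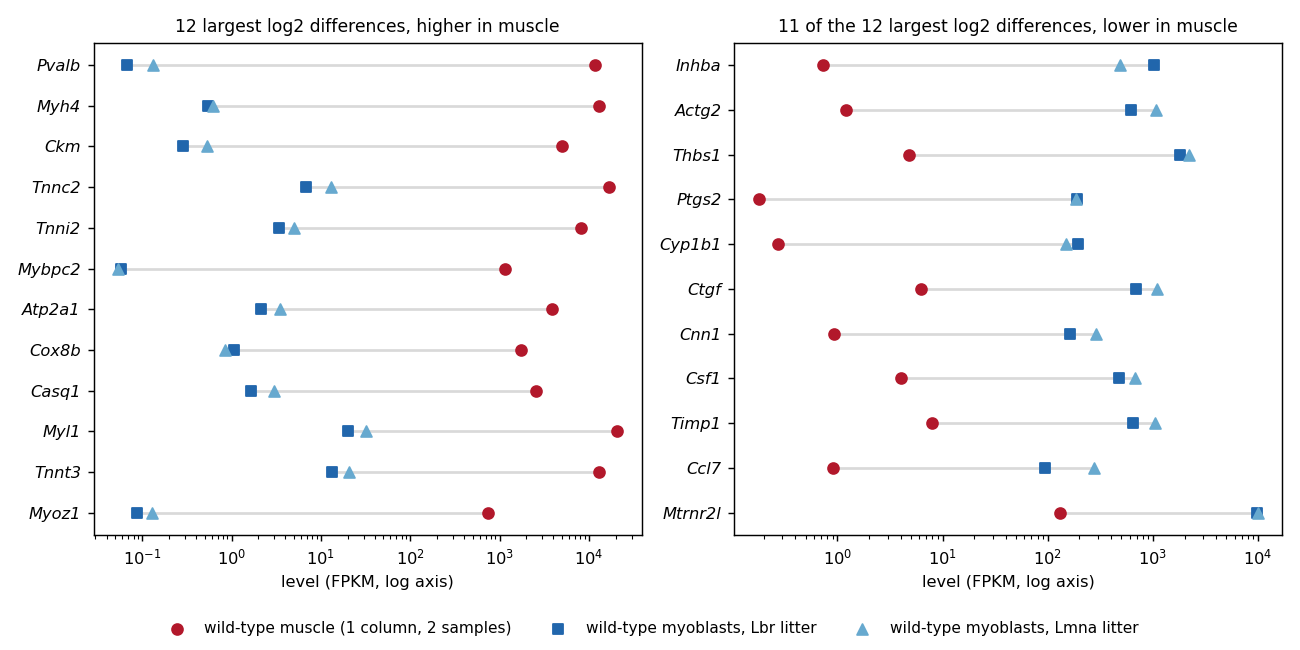
Levels of the 12 genes furthest above and 11 of the 12 furthest below the myoblasts in muscle, in FPKM on a log axis, with 1 point for the muscle column and 1 for each myoblast library. The muscle point lies right of both myoblast points for the 12 genes on the left, from Pvalb to Myoz1, and left of both for the 11 on the right, from Inhba to Mtrnr2l, and the gap to muscle is wider than that between the myoblast libraries.

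The genes furthest below the myoblasts in muscle had several kinds of product, among them secreted proteins, smooth-muscle proteins and enzymes. Inhba, the activin A subunit, had 0.724 FPKM in muscle against 1026 and 486 FPKM in Lbr-litter and Lmna-litter myoblasts (−8.68, SE 0.46, adjusted p = 4.81e-07). It was thus below 1 FPKM in muscle and abundant in both cultures. Actg2 and Cnn1, a smooth-muscle actin and calponin, had 1.21 and 0.934 FPKM in muscle, against 618 and 165 FPKM in Lbr-litter and 1077 and 287 FPKM in Lmna-litter myoblasts. Thbs1 and Ctgf, matricellular proteins, differed by −8.43 and −6.91, and Timp1, an inhibitor of matrix metalloproteases, by −6.52. Others of the 12 were Ptgs2 (the inducible cyclooxygenase, −7.32), Cyp1b1 (a cytochrome P450, −7.07), the macrophage growth factor Csf1 (−6.81), the monocyte chemokine Ccl7 (−6.41) and Mtrnr2l. Mtrnr2l had 129.5 FPKM in muscle against 9772 and 9882 FPKM in the myoblast libraries, but its sequence is shared with the mitochondrial genome and its reads cannot be assigned with certainty. None of the 15 mitochondrially encoded genes is a row of the table.

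Contractile proteins as a group were higher in muscle. Of 46 compared genes for thick filaments, thin filaments and Z-discs, 43 were higher and 1 was lower, with a median of 5.29 (interquartile range 3.33 to 7.22; 5.86 above the median gene). Ttn, the giant spring protein titin, had 920.4 FPKM in muscle against 0.751 and 0.954 FPKM in the myoblast libraries (8.96, SE 0.30, adjusted p = 6.96e-08). Myl1, a light chain of fast myosin, was the most abundant of the largest differences, with 20559 FPKM in muscle against 20.1 and 32.0 FPKM in the myoblast libraries. Thus Myl1 was already above 20 FPKM in both cultures, where Ttn was below 1. Mybpc2, the fast myosin-binding protein C, had 1153 FPKM in muscle against 0.0573 and 0.0543 FPKM in the cultures.

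Genes of fast and of slow fibres were both mostly higher in muscle. All 16 fast-fibre genes were higher in muscle, with a median of 9.56 (interquartile range 7.78 to 10.23; 10.13 above the median gene). Of 10 slow-fibre genes 7 were higher and 1 was lower, with a median of 3.48 (4.06 above the median gene). Myl2, the slow and cardiac regulatory light chain, had 270.2 FPKM in muscle against 0.191 and 1.17 FPKM in the myoblast libraries (7.40, SE 0.38, adjusted p = 3.82e-07). Myh7, the slow myosin heavy chain, had 148 FPKM in muscle against 0.393 and 0.790 FPKM in the cultures (6.56, SE 0.31, adjusted p = 2.59e-07). Mybpc1 and Myoz2, slow partners of Mybpc2 and Myoz1, differed by 6.90 and 5.61. The level of Myh7 in muscle, 148 FPKM, stood beside 13015 FPKM of Myh4. The slow-fibre gene that was lower is Atp2a2, the calcium pump of slow fibres, heart and non-muscle cells, at 42.4 FPKM in muscle and 142 and 155 FPKM in the cultures (−1.78).

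Contractile and junction genes of developing muscle went both ways: 4 of 9 were higher and 3 lower, with a median of 0.01 (0.58 above the median gene). Actc1, the cardiac actin that is also made in fetal skeletal muscle, had 6501 FPKM in muscle against 36.7 and 78.0 FPKM in the myoblast libraries (6.90, SE 0.52, adjusted p = 4.25e-06). Myh8, the perinatal myosin heavy chain, had 481 FPKM in muscle against 3.67 and 4.94 FPKM in the cultures (6.52). Both were thus abundant in this muscle. Myh6, a cardiac myosin heavy chain, had 22.2 FPKM in muscle against 0.0508 and 0.128 FPKM in the cultures (4.41). Myh10, a non-muscle myosin, was lower at 11.5 FPKM in muscle against 65.1 and 55.6 FPKM in the cultures (−2.29). A list of genes known from heart summed to 30.5 FPKM in muscle and 4.98 and 5.23 FPKM in the myoblast libraries.

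Excitation and contraction are coupled by calcium release from the sarcoplasmic reticulum, and all 23 compared genes of that system were higher in muscle (median 5.81, 6.38 above the median gene). Casq1, which stores calcium in the reticulum, had 2539 FPKM in muscle against 1.63 and 2.98 FPKM in the myoblast libraries (9.62, SE 0.35, adjusted p = 9.13e-08). Atp2a1, the pump that returns calcium to it, had 3874 FPKM in muscle against 2.14 and 3.46 FPKM in the cultures (10.02, SE 0.34, adjusted p = 7.79e-08). Both were present at 1 to 4 FPKM in the cultures. Ryr1, the release channel, had 168 FPKM in muscle against 0.256 and 0.527 FPKM in the cultures (6.93). Trdn, triadin, which anchors calsequestrin to the channel, differed by 8.0, and Sypl2, mitsugumin 29 of the triad junction, by 8.01.

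The promoters of 3 fast-fibre or calcium-release genes are shown because each holds, within 250 bases before the start of transcription, a motif bound by a muscle regulator. The pick went down the called genes of these groups by size of difference and kept genes with a single start and such a motif. Pvalb, Tnnc2, Tnni2 and Mybpc2 differed more than Atp2a1 and were passed over by this rule. Sequences are from RefSeq on GRCm38.p6, a later build than the mm9 of the deposited table, and are written on the strand of the gene. Capitals mark the E-box CAGCTG, which reads the same on both strands and is bound by the MyoD family, and, in Myh4, a MEF2 motif. Motifs were searched on both strands.
Myh4, chr11:67237562-67237811, plus strand: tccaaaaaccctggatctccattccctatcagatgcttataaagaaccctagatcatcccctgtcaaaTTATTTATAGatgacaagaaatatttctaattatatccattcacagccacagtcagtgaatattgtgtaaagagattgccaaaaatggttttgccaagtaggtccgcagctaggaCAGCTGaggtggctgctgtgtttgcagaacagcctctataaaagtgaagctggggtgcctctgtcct
Atp2a1, chr7:126463074-126463323, minus strand: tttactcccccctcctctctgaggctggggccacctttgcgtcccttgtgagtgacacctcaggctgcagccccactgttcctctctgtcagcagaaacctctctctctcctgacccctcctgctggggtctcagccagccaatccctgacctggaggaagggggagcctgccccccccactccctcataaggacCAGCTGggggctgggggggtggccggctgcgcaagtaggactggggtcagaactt
Casq1, chr1:172219896-172220145, minus strand: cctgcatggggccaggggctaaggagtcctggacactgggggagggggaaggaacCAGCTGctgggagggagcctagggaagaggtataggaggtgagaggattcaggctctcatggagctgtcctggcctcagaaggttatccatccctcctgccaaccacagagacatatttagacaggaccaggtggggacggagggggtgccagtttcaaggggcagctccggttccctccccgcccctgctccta
The E-box begins 67 bases before the start in Myh4, 55 bases in Atp2a1 and 195 bases in Casq1, and the MEF2 motif of Myh4 begins 182 bases before the start. Among 32841 promoters of 27018 genes, 13.0% hold CAGCTG and 2.92% the MEF2 motif. Of 13 promoters found for 12 of 16 fast-fibre genes, 38.5% hold CAGCTG and 23.1% the MEF2 motif. For sarcomere genes these shares are 31.7% and 12.2% (41 promoters, 35 of 46 genes). For calcium-release genes they are 43.8% and 6.25% (16 promoters, 14 of 23 genes). All genes compared have 12.1% and 1.69%, genes higher in muscle 15.4% and 2.92%, and respiratory-chain genes 8.70% and 0%. The contractile shares rest on few promoters and were not tested. A match is a run of letters and not a measured binding site.

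Regulators of the muscle lineage were more often higher than lower in muscle. Of 21 compared, 11 were higher in muscle and 3 lower (12 and 2 after centring on the median gene), with a median of 1.06 (1.63 above the median gene). Myf6, the member of the MyoD family that mature fibres keep, had 74.9 FPKM in muscle against 0.101 and 0.0492 FPKM in the myoblast libraries (6.14, SE 0.28, adjusted p = 2.24e-07). Myod1 had 18.1 FPKM in muscle against 2.46 and 5.35 FPKM in the cultures (2.03, SE 0.38, adjusted p = 0.00112). Myog, the regulator of terminal differentiation, had 42.9 FPKM in muscle against 2.94 and 7.47 FPKM in the cultures (2.93, SE 0.42, adjusted p = 2.29e-04). All 3 were thus higher in the tissue than in either culture. Cav3, Smyd1 and Vgll2, a caveolin, a myosin chaperone partner and a transcription cofactor of muscle, differed by 4.91, 4.44 and 3.72. The 3 lower genes were Myof, a membrane protein of fusing myoblasts (−3.49), and the transcription factors Tead1 (−2.16) and Six4 (−1.04). Tmem8c, which encodes the fusion protein myomaker, was not called, at 16.4 FPKM in muscle and 12.8 and 23.1 FPKM in the cultures (−0.072).

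The label of the cultures was checked against genes that mark myogenic precursors, of which Pax7, Pax3 and Myf5 were low and others were present. Pax7, the factor of satellite cells, had 1.71 FPKM in muscle and 0.253 and 0.152 FPKM in the myoblast libraries. Pax3 had 0.185 FPKM in muscle and 0.111 and 0.228 FPKM in the cultures, and Myf5 3.76 FPKM in muscle and 0.241 and 0.441 FPKM in the cultures. Each is below 1 FPKM in both cultures, which are called myoblasts here by their label, and Pax7 and Pax3 averaged below 1 FPKM over the 3 columns. Des, the intermediate filament of muscle cells, had 731 FPKM in muscle and 23.3 and 32.9 FPKM in the cultures. Cdh15, M-cadherin of myogenic cells, had 8.79 FPKM in muscle and 1.16 and 0.877 FPKM in the cultures. Myod1, given above, was at 1 FPKM or more in both cultures, as were 15 of the 21 members of the list of satellite-cell and myoblast genes. The 15 include surface and signalling genes such as Itgb1, Notch1 and Sdc4. Of all 22552 genes of the table, 11315 and 11398 reached 1 FPKM in the cultures, so this count does not by itself identify myogenic cells. Below 1 FPKM in both cultures were 5 members: Pax7, Pax3, Calcr, Chodl and Mstn, with Calcr listed at 0 in both. Which cells the cultures hold was not tested. Of 18 satellite-cell and myoblast surface or signalling genes compared, 4 were higher in muscle and 6 lower (6 and 4 after centring), with a median of −0.48 (0.09 above the median gene). Mstn, the growth inhibitor myostatin, had 23.1 FPKM in muscle against 0.0278 and 0.0272 FPKM in the cultures (4.55), while Itgb1, the integrin beta 1 chain, had 62.7 FPKM in muscle against 445 and 392 FPKM in the cultures (−2.72).

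Genes of cell division were lower in muscle nearly without exception. Of 53 compared genes of mitosis 51 were lower and 0 higher, with a median of −3.02 (interquartile range −3.51 to −2.31; −2.44 relative to the median gene). The 2 not called were Cdc25b (−0.25) and Pttg1 (0.54), of which 1, Pttg1, was higher after centring. Of 50 genes of DNA replication 44 were lower and 0 higher, with a median of −2.22 (−1.65 relative to the median gene); after centring, 32 were lower and 0 higher. Ube2c, which hands ubiquitin to cyclins at the end of mitosis, had 5.40 FPKM in muscle against 189 and 281 FPKM in the myoblast libraries (−5.17, SE 0.37, adjusted p = 3.30e-06). Ccna2, cyclin A2, had 4.37 FPKM in muscle against 97.7 and 100.1 FPKM in the cultures (−4.22, SE 0.31, adjusted p = 4.08e-06). Rrm2, the S-phase subunit of ribonucleotide reductase, had 8.14 FPKM in muscle against 124 and 176 FPKM in the cultures (−4.02, SE 0.36, adjusted p = 1.16e-05). In each case both cultures lay far above the muscle column. Hmmr and Anln, of the spindle and the cleavage furrow, differed by −4.06 and −3.98, and the replication factors Gins2, Rrm1 and Pole2 by −3.82, −3.39 and −2.96.

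Inhibitors of cyclin-dependent kinases went both ways. Cdkn1c, p57, had 217 FPKM in muscle against 2.78 and 7.02 FPKM in the myoblast libraries (5.31, SE 0.42, adjusted p = 6.01e-06). Cdkn1a, p21, had 4.33 FPKM in muscle against 205 and 374 FPKM in the cultures (−5.70, SE 0.42, adjusted p = 3.55e-06), and Cdkn2b, p15, 0.837 FPKM in muscle against 12.0 and 18.5 FPKM in the cultures (−3.12). These 3 were the called genes of the 6 compared. Replication-dependent histones, whose messages mostly lack a poly(A) tail and whose copies are near identical, were 6 higher and 14 lower of 58, with a median of −0.29 (10 and 7 after centring).

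Promoters of mitotic genes are shown for Ube2c and Ccnb1, cyclin B1, which were picked for holding both of a known pair of elements. These are the CCAAT box and the CHR element (TTTGAA or TTTAAA), in capitals here on either strand. The pick went down the called mitosis genes by size of difference and kept genes with a single start and both elements. Ccna2, Hmmr and Anln differed more than Ccnb1 and were passed over by this rule.
Ube2c, chr2:164769679-164769928, plus strand: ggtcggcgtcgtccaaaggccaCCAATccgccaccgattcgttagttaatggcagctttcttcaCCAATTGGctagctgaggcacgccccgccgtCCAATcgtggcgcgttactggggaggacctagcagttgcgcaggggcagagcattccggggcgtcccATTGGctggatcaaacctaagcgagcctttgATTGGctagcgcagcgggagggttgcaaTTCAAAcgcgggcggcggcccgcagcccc
Ccnb1, chr13:100786487-100786736, minus strand: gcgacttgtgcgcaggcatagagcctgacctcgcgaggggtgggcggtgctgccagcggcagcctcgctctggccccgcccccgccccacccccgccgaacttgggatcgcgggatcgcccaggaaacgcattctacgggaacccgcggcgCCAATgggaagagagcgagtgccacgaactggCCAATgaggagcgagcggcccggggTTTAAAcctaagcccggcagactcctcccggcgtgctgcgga
Ube2c holds 6 CCAAT boxes, beginning 228, 186, 183, 155, 88 and 57 bases before the start, of which those at 186 and 183 overlap on opposite strands, and a CHR element at 29. Ccnb1 holds CCAAT boxes at 99 and 67 and a CHR element at 42. Both elements occur in 38% of the 50 promoters found for 45 of the 53 mitosis genes, in 12.0% of the 50 promoters found for 41 of the 50 replication genes, in 6.59% of the 12042 promoters found for 78.8% of the genes compared, and in 8.78% of all 32841 promoters. A CCAAT box was found in 70.0% of mitosis, 58.0% of replication, 35.4% of compared and 33.9% of all promoters. It was also in 78.9% of the 19 promoters found for 16 of 22 cholesterol-synthesis genes, so it was not particular to cell division. In promoters of genes lower in muscle its share was 35.4%. The CHR element was found in 46.0% of mitosis, 22.0% of replication, 18.0% of compared and 25.2% of all promoters. Its share was 10.5% for cholesterol synthesis and 18.6% for genes lower in muscle. The replication share of the CHR element thus lies between those of the compared genes and of all promoters. Ccnb1 had 2.30 FPKM in muscle against 48.5 and 53.4 FPKM in the myoblast libraries (−3.97). These shares describe letters within 250 bases and were given no test.

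**Figure D2:**
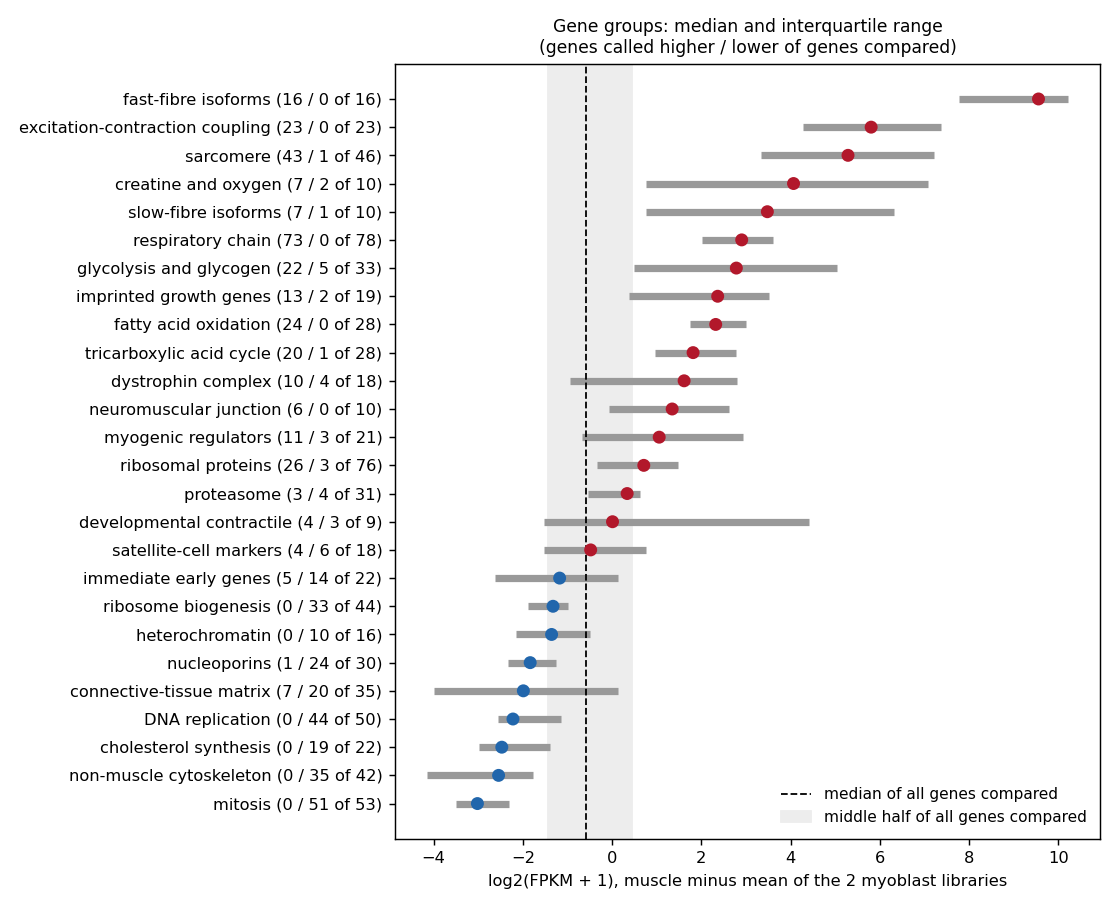
Log2 difference of muscle minus myoblasts for each gene group, with a point at the group's median, red above and blue below the median of all genes, and a bar over its interquartile range. The dashed line marks the median of all genes, −0.57, the grey band their interquartile range, and the labels give genes called higher and lower of those compared. Fast-fibre, calcium-release and sarcomere groups lie furthest right, with medians of 9.56, 5.81 and 5.29, and the mitosis group furthest left, at −3.02.

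Energy metabolism was higher in muscle across its branches. Of 33 glycolytic and glycogen genes 22 were higher and 5 lower, with a median of 2.79 (3.36 above the median gene). Pgam2, the muscle phosphoglycerate mutase, had 2449 FPKM in muscle against 3.29 and 3.99 FPKM in the myoblast libraries (9.05, SE 0.32, adjusted p = 8.58e-08). Pygm, which breaks down glycogen, had 762 FPKM in muscle against 0.715 and 1.23 FPKM in the cultures (8.61). Eno3, the muscle enolase, had 3817 FPKM in muscle against 21.2 and 26.9 FPKM in the cultures (7.26). Of these, Eno3 alone was above 20 FPKM in both cultures. The 5 lower genes were Slc2a1, Pgam1, Pgm1, Pfkp and Pfkl; Slc2a1, Pgam1, Pfkp and Pfkl are forms known from tissues other than muscle. Of 10 genes of phosphocreatine, adenine nucleotide and oxygen handling 7 were higher and 2 lower (7 and 0 after centring), with a median of 4.07 (4.64 above the median gene). Ampd1, the AMP deaminase of muscle, differed by 8.24, Ckmt2, the mitochondrial creatine kinase, by 7.73, and Mb, myoglobin, by 5.09, with 481 FPKM in muscle against 8.89 and 19.2 FPKM in the cultures.

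Nuclear genes of the respiratory chain and ATP synthase were higher in 73 of 78 cases and lower in 0, with a median of 2.91 (interquartile range 2.02 to 3.62; 3.48 above the median gene). Cox8b, a cytochrome oxidase subunit of muscle and brown fat, had 1728 FPKM in muscle against 1.06 and 0.838 FPKM in the myoblast libraries (9.79, SE 0.30, adjusted p = 5.04e-08). Uqcrb, a subunit of complex III without a tissue form, had 1124 FPKM in muscle against 15.3 and 23.0 FPKM in the cultures (5.83, SE 0.38, adjusted p = 1.67e-06). Atp5k, of ATP synthase, had 2875 FPKM in muscle against 51.1 and 62.2 FPKM in the cultures (5.65). The differences thus took in subunits made in every tissue as well as the muscle forms. Genes of the citric acid cycle and of pyruvate entry were 20 higher and 1 lower of 28 (median 1.82, 2.39 above the median gene), with Pdk4 and Pdk2, kinases that restrain pyruvate dehydrogenase, at 4.83 and 4.94, and Pdk3 the 1 lower gene. Fatty acid oxidation was 24 higher and 0 lower of 28 (median 2.32, 2.90 above the median gene). Fabp3, the fatty acid carrier of muscle, had 856 FPKM in muscle against 1.34 and 2.08 FPKM in the cultures (8.32), and Cpt1b, the muscle gate of fatty acid entry into mitochondria, 52.2 FPKM in muscle against 0.225 and 0.0940 FPKM in the cultures (5.52). Cd36, a fatty acid transporter also made by endothelium and fat, differed by 5.90. White fat markers moved with this group, with sums of 884 FPKM in muscle and 78.1 and 76.7 FPKM in the cultures, and their part in it was not tested.

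The exchange of common for muscle forms was measured in 24 pairs of genes with the same function, as the muscle form's share of the pair's summed FPKM. Creatine kinase was 99.8% Ckm in muscle against 1.32% and 1.31% in the Lbr-litter and Lmna-litter myoblasts, with Ckb making up the rest. Phosphoglycerate mutase was 99.3% Pgam2 in muscle against 1.12% and 1.01% in the cultures, and the calcium pump 98.9% Atp2a1 in muscle against 1.49% and 2.18% in the cultures. Actin was 98.3% Acta1 in muscle against 0.971% and 1.31% in the cultures, and the glucose transporter 95.7% Slc2a4 in muscle against 0.161% and 0.444% in the cultures. In these pairs the members were called in opposite directions, though the call on Ckb (−1.38) was lost after centring on the median gene (−0.82, adjusted p = 0.0898). Actb, the cytoplasmic actin, had 293 FPKM in muscle against 2605 and 3955 FPKM in the cultures (−3.45), and Slc2a1 1.35 FPKM in muscle against 60.6 and 68.7 FPKM in the cultures (−4.80).

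In other pairs the muscle form's share was higher in muscle and the common form was mostly not called. Cytochrome oxidase subunit 6A was 61.6% Cox6a2 in muscle against 1.14% and 1.25% in the myoblast libraries, while Cox6a1 had 253 FPKM in muscle against 269.8 and 355 FPKM in the cultures (−0.29). Subunit 8 was 89.8% Cox8b in muscle against 1.02% and 0.443% in the cultures, with Cox8a at 0.50. The acetylcholine receptor was 92.5% of the adult form Chrne in muscle against 9.32% and 6.44% in the cultures, with the fetal Chrng at −0.012 and below 3 FPKM in all 3 columns. The mitochondrial ADP/ATP carrier was 93.5% Slc25a4 in muscle against 47.7% and 48.5% in the cultures. In this pair the muscle form thus made up about as much as the common one in the cultures. Enolase was 96.2% Eno3 in muscle against 56.5% and 50.1% in the cultures. The common enolase is counted in a row joined with Gm5506 and was itself higher in muscle. That row had 150 FPKM in muscle against 16.4 and 26.8 FPKM in the cultures, and the enolase shares are uncertain because it is joined. Eef1a2 and Rpl3l, muscle forms of elongation factor 1A and ribosomal protein L3, were listed at 0 in both cultures and made up 40.6% and 70.9% of their pairs in muscle. Of the 24 pairs laminin beta moved least, with Lamb2 at 43.1% in muscle against 20.5% and 24.9% in the cultures.

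**Figure D3:**
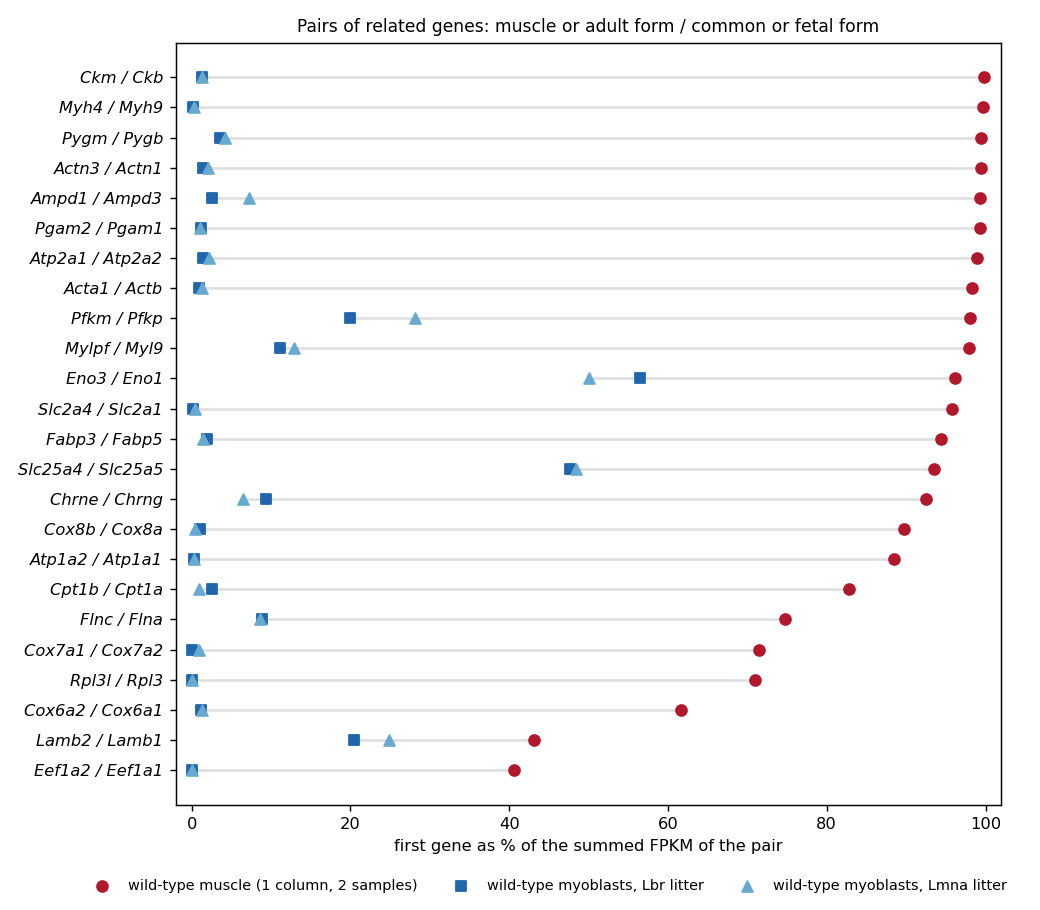
Share of the muscle form in the summed FPKM of 24 pairs of genes, in percent, with 1 point for the muscle column and 1 for each myoblast library. The muscle point lies right of both myoblast points in all 24 pairs, and runs from 40.6% for Eef1a2 to 99.8% for Ckm.

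Protein synthesis genes separated into ribosomal proteins and the machinery that builds ribosomes. Of 76 ribosomal protein genes 26 were higher in muscle and 3 lower, with a median of 0.71 (1.29 above the median gene), and after centring 41 were higher and 1 lower. Rps12 had 883 FPKM in muscle against 37.8 and 41.9 FPKM in the myoblast libraries (4.44), and Rps21 756 FPKM in muscle against 41.1 and 61.3 FPKM in the cultures (3.89). Ribosomal protein genes have many near-identical copies, and rows such as Rpl34 joined with Rpl34-ps1 (−3.01) are uncertain for that reason. Ribosome biogenesis was 33 lower and 0 higher of 44, with a median of −1.32 (−0.75 relative to the median gene), and 18 lower after centring. Nop58, a core protein of box C/D small nucleolar particles, had 9.43 FPKM in muscle against 114 and 66.9 FPKM in the cultures (−3.08), with Nop56 at −2.74, Ddx21 at −2.66 and Ebna1bp2 at −2.65. Subunits of the proteasome were 3 higher and 4 lower of 31 (11 and 1 after centring). Genes of muscle atrophy and autophagy were 8 higher and 4 lower of 20 (11 and 3 after centring). They were led by Trim63, the ubiquitin ligase MuRF1, with 49.2 FPKM in muscle against 0.0998 and 0.519 FPKM in the cultures (5.28).

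The non-muscle cytoskeleton and the matrix were lower in muscle. Of 42 genes of stress fibres, adhesions and cortical actin 35 were lower and 0 higher, with a median of −2.54 (−1.97 relative to the median gene; 32 lower and 1 higher after centring). Tagln, transgelin of stress fibres, had 8.75 FPKM in muscle against 509.9 and 799 FPKM in the myoblast libraries (−6.04, SE 0.42, adjusted p = 2.94e-06). Cald1, caldesmon, had 29.1 FPKM in muscle against 1129 and 884 FPKM in the cultures (−5.05), and Anxa1, an annexin, differed by −4.97. Of 35 genes of connective-tissue matrix 20 were lower and 7 higher, with a median of −1.99 (−1.42 relative to the median gene). Lox, which crosslinks collagen, had 10.7 FPKM in muscle against 931 and 712 FPKM in the cultures (−6.12, SE 0.42, adjusted p = 2.34e-06). Lum, the proteoglycan lumican of resting connective tissue, went the other way, with 91.4 FPKM in muscle against 1.67 and 0.303 FPKM in the cultures (5.63, SE 0.41, adjusted p = 3.48e-06). Smooth-muscle and pericyte markers were 5 higher and 7 lower of 15 (7 and 5 after centring). They stood at a summed 1299 FPKM in muscle and 5139 and 8013 FPKM in the cultures. Of these sums, Acta2 made up 262 FPKM in muscle and 4783 and 7479 FPKM in the cultures. Des, also on the list, made up 731 FPKM in muscle and 23.3 and 32.9 FPKM in the cultures. The sums thus rest mostly on Acta2 in the cultures and on Des in muscle. The part of these markers in the cytoskeletal differences was not tested.

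Muscle subunits of the complex that anchors the fibre membrane were higher in muscle. Of 18 genes of the dystrophin-glycoprotein complex and its enzymes 10 were higher and 4 lower (10 and 3 after centring). Their median was 1.61 (2.19 above the median gene). Sgca, alpha-sarcoglycan, had 75.3 FPKM in muscle against 0.283 and 1.07 FPKM in the myoblast libraries (5.55). It was at or below about 1 FPKM in the cultures. Large, which glycosylates dystroglycan, and Sntb2, a syntrophin, were among the lower genes. At the neuromuscular junction 6 of 10 genes were higher and 0 lower, led by Chrne (16.9 FPKM in muscle against 0.0799 and 0.152 FPKM in the cultures, 4.01), Rapsn, which clusters the receptor (2.92), and Chrnb1 (2.89). Basement membrane genes were 2 higher and 5 lower of 15 (4 and 2 after centring).

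The nuclear envelope is where the proteins deleted elsewhere in the series act. Lbr itself, the lamin B receptor, was not called, at 11.8 FPKM in muscle against 16.1 and 14.7 FPKM in the myoblast libraries (−0.35, SE 0.30, adjusted p = 0.32). Lmna, which encodes lamins A and C, was lower at 59.5 FPKM in muscle against 114 and 147 FPKM in the cultures (−1.11, SE 0.37, adjusted p = 0.0239). That call was lost after centring on the median gene (−0.55, adjusted p = 0.207). Lmnb1 had 5.77 FPKM in muscle against 24.3 and 21.7 FPKM in the cultures (−1.83, adjusted p = 5.16e-04), while Lmnb2 was not called (9.13 FPKM in muscle against 5.47 and 6.63 FPKM in the cultures, 0.53) and was higher after centring (1.09). Of the lamins, Lmnb1 alone was thus lower under both scalings. Emd, emerin of the inner membrane, showed the largest difference of these 5, with 3.73 FPKM in muscle against 51.6 and 75 FPKM in the cultures (−3.74, SE 0.34, adjusted p = 1.30e-05).

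Around these, 13 genes of LEM-domain, SUN and nesprin proteins of the nuclear envelope and their partners, Emd among them, were 1 higher and 4 lower (2 and 2 after centring). Syne1, nesprin 1, was the higher one (1.68), and Zmpste24, the protease that processes prelamin A, was among the lower (−1.61). Transmembrane proteins known from the muscle nuclear envelope were 4 higher and 3 lower of 9 (5 and 1 after centring). Tmem38a, a cation channel of the sarcoplasmic reticulum and envelope, had 424 FPKM in muscle against 6.51 and 7.14 FPKM in the cultures (5.76), and Klhl31 differed by 5.81. Nucleoporins were 24 lower and 1 higher of 30, with a median of −1.84 (−1.26 relative to the median gene; 18 and 1 after centring). Nup107, of the pore scaffold, had 1.69 FPKM in muscle against 28.5 and 24.8 FPKM in the cultures (−3.36). Nup210, a membrane nucleoporin that is induced during myogenic differentiation, was the 1 higher, with 3.94 FPKM in muscle against 0.140 and 0.285 FPKM in the cultures (2.03, SE 0.24, adjusted p = 7.13e-05). Heterochromatin genes were 10 lower and 0 higher of 16 (7 and 1 after centring), led by Cbx5, the HP1 alpha protein (−2.68), Hells (−2.64) and the methyltransferase Suv39h1 (−2.45). Sterol synthesis was 19 lower and 0 higher of 22, with a median of −2.47 (−1.90 relative to the median gene), led by Sqle (1.09 FPKM in muscle against 40.0 and 38.2 FPKM in the cultures, −4.26) and Cyp51 (−4.03); Lbr also acts as a sterol reductase.

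Markers of other cells differed between the tissues, and their part in the results above was not tested. Erythroid genes summed to 4543 FPKM in muscle and 12.2 and 13.2 FPKM in the myoblast libraries, with 7 of 12 rows at 0 in both cultures. Endothelial genes were 13 higher and 1 lower of 16 compared, with sums of 389 FPKM in muscle and 62.1 and 57.1 FPKM in the cultures. Pecam1 had 51.8 FPKM in muscle against 1.52 and 0.680 FPKM in the cultures, and Cdh5 77.6 FPKM in muscle against 4.48 and 3.15 FPKM in the cultures. Blood and vessel genes were thus far above the cultures in the tissue. White fat markers were 6 higher and 1 lower of 9, and Adipoq, Retn and Cidec were at 0 in both cultures. The brown fat genes Ucp1 and Cidea had 67.8 and 15.5 FPKM in muscle and were listed at 0 in both cultures. Of the 8 genes on the brown fat list, 4 averaged at least 1 FPKM: Ucp1, Cidea, Cox7a1 and Fabp3. Cox7a1 and Fabp3 are also counted as muscle forms in the pairs above. Elovl3, Dio2, Prdm16 and Otop1 averaged less. A list of Schwann cell markers was 4 higher and 5 lower of 14 (7 higher and 4 lower after centring), and summed to 479 FPKM in muscle and 228 and 293 FPKM in the cultures.

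More macrophage markers were lower than higher in muscle, and lists of fibroblasts and of tendon and bone went both ways. Macrophage genes were 9 lower in muscle and 2 higher of 19 (6 lower and 3 higher after centring), with sums of 171 FPKM in muscle and 487 and 1787 FPKM in Lbr-litter and Lmna-litter myoblasts. Lyz2, lysozyme, had 43.7 FPKM in muscle and 316 and 1131 FPKM in the cultures (−3.74, SE 0.66, adjusted p = 7.61e-04), so the cultures also differed between themselves. Thy1, a fibroblast surface protein, had 16.0 FPKM in muscle and 272 and 306 FPKM in the cultures, in a fibroblast list of 4 higher and 5 lower of 13 (5 higher and 3 lower after centring; summed 806 FPKM in muscle and 590 and 758 FPKM in the cultures). Runx2, a bone regulator, had 0.495 FPKM in muscle and 31.3 and 29.4 FPKM in the cultures, and its tendon and bone list was 2 higher and 4 lower of 11 (3 higher and 2 lower after centring). Neither list moved mostly one way. Neutrophil, lymphoid, keratinocyte, liver and pancreas lists summed to between 8.33 and 70.8 FPKM in muscle and between 1.43 and 8.24 FPKM in the cultures.

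**Figure D4:**
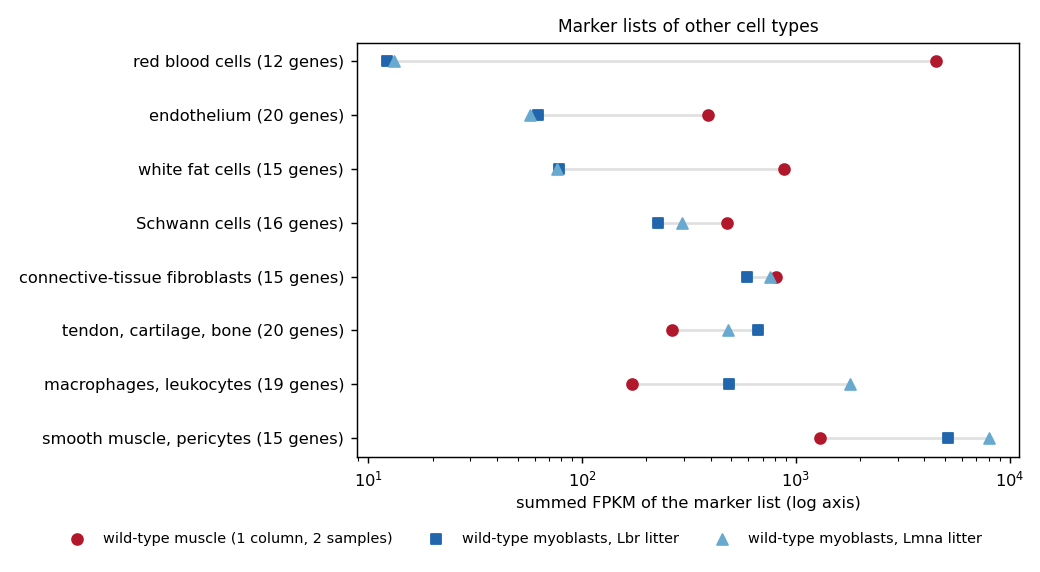
Summed FPKM of marker lists of other cell types, on a log axis, with 1 point for the muscle column and 1 for each myoblast library. The muscle point lies right of both myoblast points for red blood cells, endothelium, white fat, Schwann cells and fibroblasts. It lies left of both for tendon and bone, macrophages and smooth muscle. Acta2 makes up most of the smooth-muscle sum in the cultures.

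The kits can also differ in what RNA they capture, and a few noncoding RNAs were read for that. Rmrp and Rpph1, RNase components made without a poly(A) tail, had 272 and 105 FPKM in muscle, against 5.24 and 12.1 FPKM in Lbr-litter and 20.3 and 28.3 FPKM in Lmna-litter myoblasts. Neat1, a nuclear RNA, was higher in muscle (3.38), Malat1, another, was not called (0.010), and the snoRNA hosts Snhg1 and Gas5 were lower (−2.0 and −1.63). The median difference was −0.40 in the fifth of genes with the shortest transcripts (median length 643 bases) and −0.79 in that with the longest (3593 bases), over the 90.4% of genes with a length in the reference. Which of tissue and kit these values belong to cannot be told apart.

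Genes listed at 0 were kept out of the fit, since an exact 0 in a table without counts can be a failed estimate. In the muscle column 80 genes were at 0, of which 76 were above 0 in both cultures. The 5 of highest level in the cultures were Rps27 (175 and 279 FPKM in the cultures), the granzyme Gzme (47.5 and 67.8), Tubb3 (23.7 and 31.6), Gzmd (23.2 and 30.8) and 4930503E24Rik (19.4 and 28.5). Rps27 encodes a ribosomal protein that every cell uses. Another 83 genes were at 0 in both cultures, led by Beta-s at 2118 FPKM in muscle and the joined row of Hba-a1 and Hba-a2 at 1113 FPKM, both globins, Tpt1p at 746 FPKM, the joined row of Hbb-b1 and Hbb-b2 at 576 FPKM, and Eef1a2 at 547 FPKM. Tpt1p is near identical to Tpt1, which had 1352 FPKM in muscle and 443 and 492 FPKM in the cultures, and globin copies share sequence, so these rows are uncertain.

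The same tissues of the knockouts, in other columns and made with the same pair of kits, showed most of these differences. Each knockout column stands for 2 samples and no test was made. In Lbr knockout tissues, 1808 of the 1981 genes higher in wild-type muscle with a value (91.3%) were at least 2-fold higher in muscle than in myoblasts, as were 1710 of 1960 (87.2%) in Lmna knockout tissues. Of the genes lower in wild-type muscle, 3823 of 4367 (87.5%) were at least 2-fold lower in Lbr knockout and 3645 of 4367 (83.5%) in Lmna knockout tissues. Of all genes compared, 17.4% and 36.0% were 2-fold higher and lower in Lbr knockout tissues and 17.0% and 34.9% in Lmna knockout tissues. Read the other way, 88.0% and 89.7% of the Lbr knockout lists and 85.1% and 88.6% of the Lmna knockout lists were called in the wild type. In both knockouts at once, 1607 of 1950 higher genes (82.4%) and 3346 of 4353 lower genes (76.9%) passed 2-fold, and 0 genes went the opposite way in both.

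As medians of gene groups, mitosis had −2.98 in Lbr knockout and −3.29 in Lmna knockout tissues beside −3.02 in the wild type, and the respiratory chain 2.92 and 2.41 beside 2.91. Fast-fibre genes had 8.05 and 9.98 beside 9.56, and the sarcomere 5.23 and 6.32 beside 5.29. Contractile genes of developing muscle had −1.39 and 0.99 beside 0.01. Single fast genes differed in level between the cultures: Tnnc2 had 23.9 FPKM in Lbr knockout and 1.30 FPKM in Lmna knockout myoblasts, beside 6.75 and 13.0 FPKM in the wild types, and Pvalb had 9095 and 4889 FPKM in Lbr and Lmna knockout muscle beside 11835 FPKM in wild-type muscle.

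**Figure D5:**
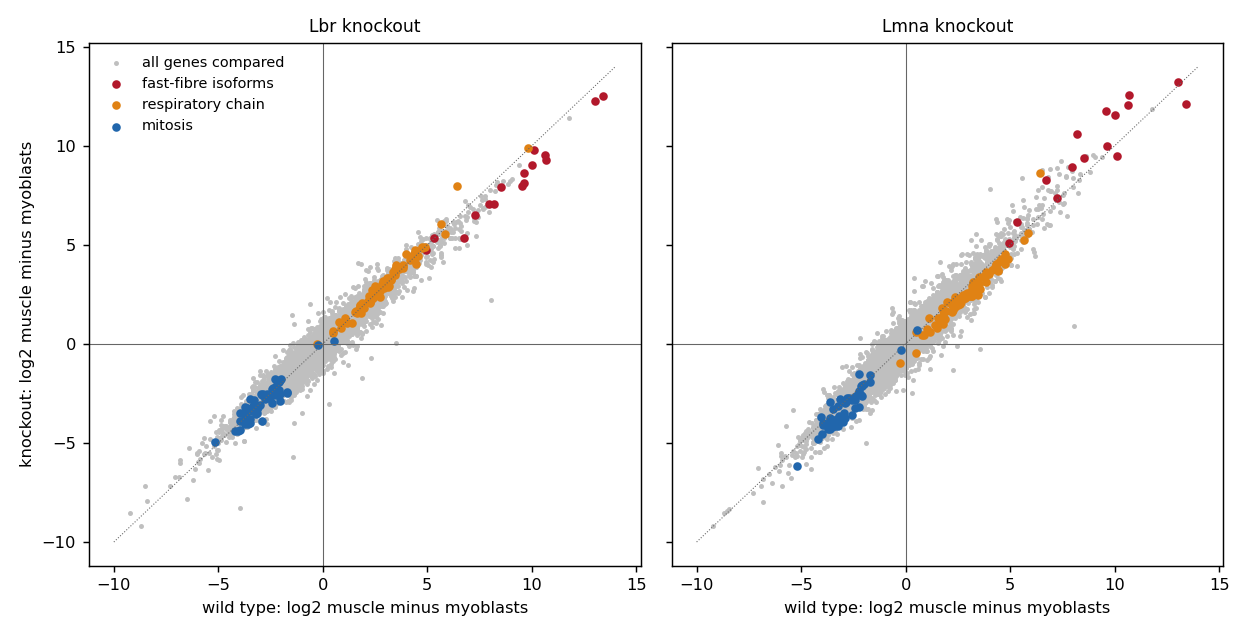
Log2 difference of muscle minus myoblasts in the Lbr knockout and the Lmna knockout columns, against the same difference in the wild type, with 1 grey point per gene and the fast-fibre, respiratory-chain and mitosis genes in red, orange and blue. Most called genes are beyond 2-fold on the same side, 91.3% and 87.2% of the higher and 87.5% and 83.5% of the lower ones in Lbr and Lmna knockout tissues.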

How the data were processed

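RNA was isolated with TRIZOL and RNeasy columns, and libraries were made with NuGEN kits that differed between myoblasts and muscle, per the labels' protocols. The deposited values are FPKM, calculated by the authors on mm9, per the submitters' processing notes. The aligner, the quantifier and the annotation, like the step from 2 samples to 1 column, are nowhere stated (not given in the sources used here). By name, all 7 value columns found their group, and 0 were unmatched. Values were analysed as log2(FPKM + 1), a pseudocount of 1, which understates the change of low genes, for genes that averaged 1 FPKM or more over the 3 wild-type columns and were above 0 in each. The muscle column was compared with the 2 myoblast libraries in limma (version 3.58.1, R 4.3.3) with a variance trend, Benjamini-Hochberg adjustment over 11911 genes, 1 residual degree of freedom and 8.94 from the prior. A call needed an adjusted p under 0.05 and 2-fold. Nothing in the labels says more of the cultures than that they come from different litters. Xist, an RNA of the inactive X chromosome, had 0.00569 FPKM in Lbr-litter and 6.67 FPKM in Lmna-litter myoblasts, and 0.0153 FPKM in muscle. Whether the cultures differ in sex was not tested. The calculation was tested on simulated data in which the muscle column varied like the cultures and most genes were unchanged. That test checks the code and cannot check the assumption about the muscle column.

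The comparison and its gene lists were chosen with earlier results of these data known, and lists overlap. Named genes were by rule the 12 largest differences in each direction (without predicted genes, pseudogenes, small RNAs, replication-dependent histones and joined rows), up to 4 members of each list by size, both members of each isoform pair, Lbr, Lmna, Lmnb1, Lmnb2 and Emd, and the 5 genes of highest level listed at 0 in either tissue. Others, among them Pax7, Pax3, Myf5, Myod1, Myog, Des, Cdh15, Tmem8c, Ryr1, Mb, Ccna2, Ccnb1, Nup210, Tpt1, the noncoding RNAs and the members given as exceptions of a list, were chosen after their values were seen. Some genes that the rule names are not reported here. Fragments per FPKM were estimated from 4179 genes with a single transcript. Promoters came from RefSeq on GRCm38.p6, matched by gene name or synonym, with no coordinate of the table used. Alternatives were pseudocounts of 0.1 and 5 FPKM, no filter or one of 5 FPKM, genes at 0 kept, median centring, quantile normalization, scaling without the 100 most abundant genes, no variance trend, a robust prior, 2-fold against each myoblast library, omission of each library, and an additive fit over all 7 columns.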

Additional observations from a re-analysis of the deposited data

How the results depend on the processing

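Of 228 named genes with a value, 207 were called. In each of the 16 other settings that held a value for them, 184 of the 228 kept their status. Status means called in the same direction, or not called. A mean of at least 5 FPKM left 201 of them with a value and the fit over all 7 columns 217. In no setting did a called gene change sign (0 genes). Of the medians of 42 gene lists, 0 of those at 2-fold or more changed sign, but 9 smaller ones, up to 0.48 in size, did in some setting. Under median centring these were satellite-cell genes (0.08, against −0.48 as deposited), the LEM-domain, SUN and nesprin list (0.11, against −0.46) and the basement membrane (0.26, against −0.30). Replication-dependent histones (0.27, against −0.29) and smooth muscle and pericytes (0.43, against −0.14) also changed sign under centring. In all, 164 of 460 recomputed medians moved by more than the SD between the values against each myoblast library. Counts moved by over 1.5 times under 4 settings. With a pseudocount of 5 FPKM 1298 genes were higher and 2777 lower, of which 1173 and 2418 were 2-fold in the Lbr knockout and 1087 and 2355 in the Lmna knockout columns. With a mean of at least 5 FPKM 1296 were higher, 1189 and 1093 of them 2-fold in the Lbr and Lmna knockouts; fewer genes are tested by construction. With median centring 2994 were higher and 2543 lower, and 2211 and 2167 of the lower ones were 2-fold in the Lbr and Lmna knockouts. With quantile normalization 2547 lower genes were 2-fold in the Lbr knockout. The cause was not tested for the other settings. Without either myoblast library in turn, at 2-fold and with no test because no residual spread is left, 1962 to 2130 genes were higher and 4404 to 4435 lower. Calls without a minimum fold (2347 higher, 5203 lower) and 2-fold in the wild type and both knockouts (1607 and 3362) were alternatives chosen after seeing the data. No paired analysis was possible because the table has 1 muscle column, which shares no replicate number with the myoblast libraries. The muscle column has no spread of its own, and its lower depth limits low values there.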

Other observations

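Imprinted genes of growth were mostly higher in muscle. Of 19 compared, 13 were higher and 2 lower (13 and 1 after centring). Their median was 2.37 (2.94 above the median gene). H19, the noncoding partner of Igf2, had 2676 FPKM in muscle against 54.3 and 49.7 FPKM in the cultures (5.66, SE 0.40, adjusted p = 3.09e-06). Meg3, the maternal RNA of the Dlk1 domain, had 780.1 FPKM in muscle against 21.5 and 13.2 FPKM in the cultures (5.45), and Mirg, from the same domain, 80.4 FPKM in muscle against 3.24 and 2.97 FPKM in the cultures (4.31). The lower genes before centring were Grb10, which restrains insulin signalling (−1.15), and Peg10 (−1.63). Early serum-response genes were 5 higher and 14 lower of 22 (5 and 10 after centring), led downward by Fosl1, with 0.0398 FPKM in muscle against 32.6 and 42.6 FPKM in the cultures (−5.20), while Jund was higher (2.24).

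Hox genes, which record the body position of cells, were 3 higher and 9 lower of 26 (4 and 4 after centring), from Hoxb9 at −2.73 to Hoxd8 at 1.46. Clock-controlled genes were 4 higher and 1 lower of 14 (5 and 0 after centring), led by Tef (2.45) and Dbp (1.93). Of 15 interferon-response and antigen-presentation genes 0 were higher and 4 lower (1 lower after centring), and B2m, the light chain of MHC class I, had 125 FPKM in muscle against 642 and 790.1 FPKM in the cultures (−2.50). A predicted gene, Gm9846, stood apart from the knockout columns: it had 345 FPKM in wild-type muscle against 0.0522 and 0.618 FPKM in the wild-type cultures, but 426 FPKM in Lbr knockout muscle against 90.8 FPKM in Lbr knockout myoblasts, and 336 FPKM in Lmna knockout muscle against 181 FPKM in Lmna knockout myoblasts.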
